A study of Mus musculus with 16 samples.

Results

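The sarcomeric myosin heavy chains examined here were Myh4, Myh1, Myh2, Myh7, Myh7b, Myh6, Myh3 and Myh8, the 8 listed genes whose identifiers map to these mouse symbols, out of 55471 genes in the count table. All 8 passed the filter on low counts and were among the 14331 genes tested. Myosin heavy chain is the motor of the thick filament, and the isoform that a muscle fibre makes sets how fast the fibre contracts. Adult limb fibres are classed by it, with Myh4 in fast type IIb, Myh1 in fast type IIx, Myh2 in fast oxidative type IIa and Myh7 in slow type I fibres. Myh6 is the alpha chain of the heart, Myh7b a divergent relative of Myh7, and Myh3 and Myh8 are the embryonic and perinatal chains that limb muscle turns down as it matures.

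The transcripts were measured by RNA-seq in skeletal muscle of 16 male mice, 10 labelled heterozygous (Npr1+/-) and 6 labelled wildtype (Npr1+/+), with 1 library a mouse. Npr1 encodes GCA, the guanylyl cyclase receptor of atrial natriuretic peptide. The line was B6.129-Npr1tm1Gar/J, backcrossed to C57BL/6J, so that every cell of the heterozygous animals carries the allele, and the wildtype animals were littermates. Mice of both labels entered the study at an age given as 12 weeks and had 12 weeks of high-fat diet (HFD). The mice were spread over cages 675, 676, 677 and 678, and the labels name no particular muscle. Library totals ranged from 15273472 to 59682677 counts. Npr1 mRNA was 13.6 ± 3.87 CPM (the count of a gene over the TMM-scaled total of its library, in parts of 1e6; SD, n = 10) in the libraries labelled heterozygous and 12.2 ± 1.05 CPM (SD, n = 6) in those labelled wildtype, a log2 fold change of 0.090 ± 0.20 (SE, edgeR quasi-likelihood test, adjusted p = 1). The mRNA of the targeted gene was thus not measurably lower in the heterozygous libraries, and directions below are those of the labels. Of the 5 skeletal muscle markers, Ckm, the muscle creatine kinase, was at 17761 to 36039 CPM, Acta1 at 16932 to 43665, Tnnt3 at 10400 to 25748 and Mylpf at 7787 to 22509 CPM, and Myog, a factor of differentiating muscle cells, was at 1.92 to 5.53 CPM.

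The 5 genes Myh3, Myh2, Myh1, Myh4 and Myh8 lie in this order on the + strand of chromosome 11, from base 67078300 to base 67308634 of GRCm38, a span of 230.3 kb. Myh7 and Myh6 lie head to tail on the - strand of chromosome 14, at 54970684 to 54994626 and 54941921 to 54966927. Myh7b is on chromosome 2, at 155611212 to 155634307 on the + strand. The promoters of the adult fast genes are printed because these genes moved together across the mice, and that of Myh8 because it holds the nearest match to their common stretch. Each line is the 250 bases before the RefSeq transcription start (GRCm38.p6), 5′ to 3′, with capitals marking a run of 20 bases or its closest match and the TATA box letters TATAAAA.
Myh4, chr11:67237562-67237811, + strand: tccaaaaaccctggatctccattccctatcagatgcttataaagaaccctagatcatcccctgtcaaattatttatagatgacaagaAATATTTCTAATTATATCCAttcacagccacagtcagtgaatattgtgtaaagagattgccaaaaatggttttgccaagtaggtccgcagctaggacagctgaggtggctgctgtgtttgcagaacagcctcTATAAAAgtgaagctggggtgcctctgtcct
Myh1, chr11:67199852-67200101, + strand: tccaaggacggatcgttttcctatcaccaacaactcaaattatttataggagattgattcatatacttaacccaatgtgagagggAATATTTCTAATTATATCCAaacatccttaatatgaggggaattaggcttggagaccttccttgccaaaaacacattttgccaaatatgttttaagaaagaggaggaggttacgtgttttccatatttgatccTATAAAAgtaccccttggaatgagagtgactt
Myh2, chr11:67170777-67171026, + strand: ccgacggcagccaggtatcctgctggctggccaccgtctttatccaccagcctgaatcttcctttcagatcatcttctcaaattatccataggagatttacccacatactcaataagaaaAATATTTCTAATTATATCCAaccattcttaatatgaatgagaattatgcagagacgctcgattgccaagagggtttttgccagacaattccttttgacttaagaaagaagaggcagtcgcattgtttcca
Myh8, chr11:67276874-67277123, + strand: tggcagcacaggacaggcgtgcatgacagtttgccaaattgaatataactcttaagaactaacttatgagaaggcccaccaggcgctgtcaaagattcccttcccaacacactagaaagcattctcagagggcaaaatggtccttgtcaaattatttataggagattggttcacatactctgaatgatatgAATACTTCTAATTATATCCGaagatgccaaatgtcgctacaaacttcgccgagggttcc

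The run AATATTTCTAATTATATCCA was identical in Myh4, Myh1 and Myh2, with its first base at positions -163, -165 and -130 from the start. It was picked as the longest run that these 3 windows share, so its presence in them was fixed by the choice. Searched on both strands, it occurred in 3 of 32851 RefSeq promoter windows, a share of 0.009%, and those 3 were the same genes. That share is therefore no test of a common element. In Myh8 the closest match began at position -59 and had 2 mismatches. The letters TATAAAA stood at position -31 in Myh4 and -32 in Myh1. They occurred in 4.98% of all windows and in those of Myh1, Myh3 and Myh4 among the members. These are descriptions of letters in a window and no binding was measured.

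Myh6, Myh7 and Myh7b, the 3 members outside the cluster on chromosome 11, each carry a microRNA in their gene. A mature sequence of each is shown, with the seed (bases 2 to 8) in capitals. Their other mature arms, and mmu-miR-6923-5p in Myh3, are not printed.
mmu-miR-208a-3p, in Myh6, chr14:54949072-54949093, - strand: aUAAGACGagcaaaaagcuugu
mmu-miR-208b-3p, in Myh7, chr14:54975710-54975731, - strand: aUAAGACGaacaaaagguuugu
mmu-miR-499-5p, in Myh7b, chr2:155622893-155622913, + strand: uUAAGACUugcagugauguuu
miR-208a and miR-208b share the seed UAAGACG, and miR-499-5p differs from it in the last base, with UAAGACU. The rows of the hairpins had 0 counts in all 16 libraries. A library of mRNA does not capture mature microRNAs, so only the hosts could be followed.

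Myh4 was by far the most abundant heavy chain. On the scale of CPM per kilobase of the gene length in the table, its level was 2969 ± 2648 (SD, n = 16). Myh1 stood at 471 ± 478 and Myh2 at 38.6 ± 44.04 on the same scale. The other 5 chains lay between 0.120 for Myh8 and 0.320 for Myh7, with an SD of 0.128 for Myh8 and 0.822 for Myh7 (n = 16), and no order among them is given. The table lengths of Myh8 (11772 bases) and Myh7 (8616 bases) exceed their longest coding transcripts (6149 and 6230 bases), which lowers their values per kilobase.

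As a share of the summed heavy-chain counts, Myh4 made up 81.3% at the lowest, 85.8% at the median and 88.6% at the highest of the 16 mice. Myh1 made up 10.7% to 17.3%, with a median of 13.1%. Myh2 made up 0.712% to 1.84%, with a median of 1.12%. Myh7, the slow chain, reached 0.0461% in heterozygous replicate 6 and had no count in heterozygous replicate 1, where 3 counts, the most that a count of 0 allows, correspond to 0.219 CPM. The remaining chains did not pass 0.0148% in any mouse. The sampled muscle was therefore one whose heavy-chain mRNA was almost wholly of the fast IIb and IIx types in every library.

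The summed heavy-chain counts varied more between mice than the shares of Myh4, Myh1 and Myh2 did. They were 0.594% of all counts in wildtype replicate 1 and 7.02% in heterozygous replicate 7, a range of 11.8-fold. The 3 highest libraries were heterozygous replicates 7, 6 and 5, with 7.02%, 6.34% and 3.69%, and the other 13 lay between 0.594% and 2.43%. The main comparisons below are therefore given with and without these 3 libraries.

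In the wildtype mice Myh4 ranged from 4955 to 14241 CPM, with a median of 10747. In the heterozygous mice it ranged from 5372 to 58709 CPM, with a median of 14201. The 2 labels overlapped, and only replicates 5, 6 and 7 of the heterozygous mice, at 29354, 52489 and 58709 CPM, stood above all the others. The log2 fold change between labels, with cage and body weight as covariates, was 0.17 ± 0.42 (SE), with a 95% interval of -0.72 to 1.07.

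Myh1, the IIx chain, ranged from 719 to 1879 CPM (median 1654) in wildtype and from 738 to 11376 CPM (median 2603) in heterozygous mice. Its wildtype range thus fell inside the heterozygous one except for its lowest mouse, and its log2 fold change was 0.30 ± 0.46 (SE), with an interval of -0.67 to 1.26. Myh2, the IIa chain, ranged from 69.0 to 196.9 CPM (median 128.7) in wildtype and from 66.3 to 1138 CPM (median 184.2) in heterozygous mice. All 6 wildtype values of Myh2 lay within the heterozygous range, and the log2 fold change was 0.30 ± 0.50 (SE), with an interval of -0.77 to 1.36.

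**Figure D1:**
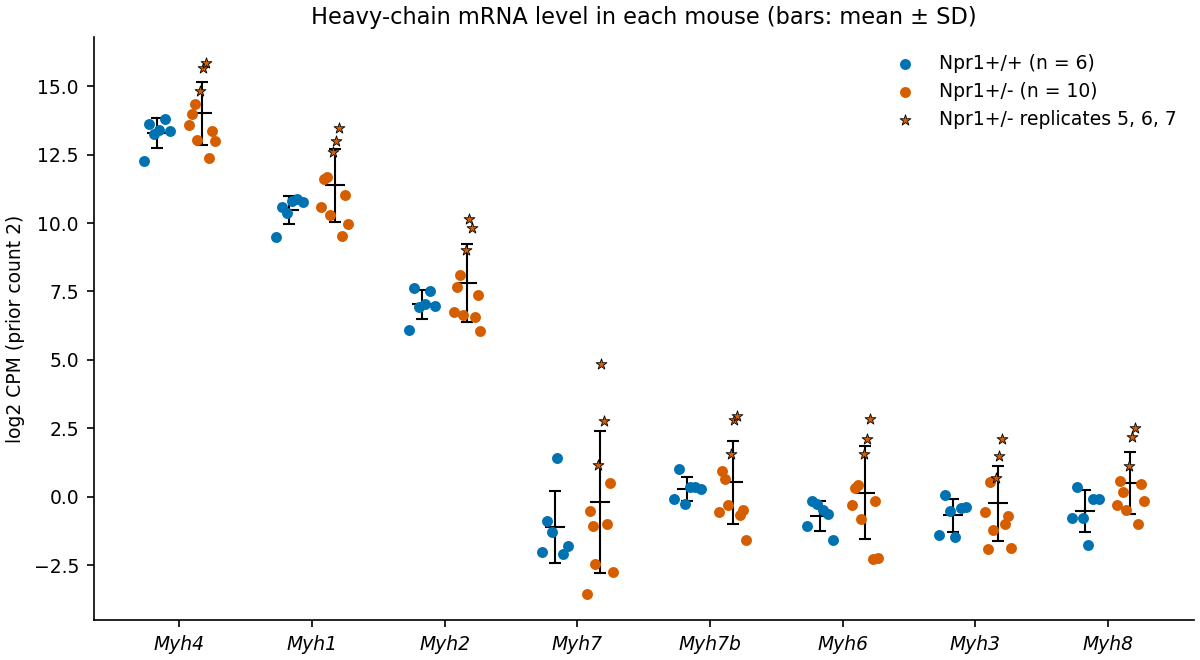
Level of the 8 heavy chains in each mouse as log2 CPM with a prior count of 2, wildtype in blue and heterozygous in orange, with the mean and SD of each label as black bars and heterozygous replicates 5, 6 and 7 as stars. Myh4, Myh1 and Myh2 stand far above the other chains, the labels overlap for every gene, and the stars lie above the other mice for 7 of the 8 genes.

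Myh7 ranged from 0.148 to 2.57 CPM in wildtype and from 0 to 28.5 CPM in heterozygous mice, and its highest value, in heterozygous replicate 6, rested on 610 counts. Its log2 fold change of 1.15 ± 1.14 (SE) had an interval of -1.31 to 3.60. Without that one mouse it was -0.34, so this mouse set its direction. Myh7b ranged from 0.754 to 1.91 CPM in wildtype and from 0.252 to 7.55 CPM in heterozygous mice. Myh6 ranged from 0.244 to 0.804 and from 0.119 to 7.09 CPM, and Myh3 from 0.278 to 0.955 and from 0.182 to 4.18 CPM. Myh8 ranged from 0.209 to 1.21 CPM in wildtype and from 0.416 to 5.59 CPM in heterozygous mice. These low chains were measured from 3 to 173 counts a library for all but Myh7 (up to 610) and, at its lowest, Myh6 with 2 counts. Their log2 fold changes were -0.035 for Myh7b, 0.57 for Myh6, -0.071 for Myh3 and 0.74 for Myh8, each with an SE of 0.57 to 0.68.

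None of the 8 passed the test between labels (edgeR, adjusted p = 1 for each), where 0% of the 14331 genes did. At an unadjusted p under 0.05 there were 0 of 8 by edgeR, DESeq2 and limma-voom, against 1.05% of all genes by edgeR. No heavy chain had label ranges that did not overlap, as 0.00698% of all genes had. The estimate was above 0 for 6 of 8, with a median of 0.30 beside -0.0060 over all genes tested, and 48.4% of all genes were above 0. The covariates moved these values by more than the errors of the fast chains. Without cage and body weight the log2 fold change was 1.08 ± 0.47 (SE) for Myh4, 1.38 ± 0.52 for Myh1 and 1.38 ± 0.57 for Myh2. In that fit 6 of 8 had an unadjusted p under 0.05, against 3.8% of all genes, all 6 being higher against 2.97% of all genes, and 0 passed after adjustment (edgeR, adjusted p = 0.999 for each). With cage as the only covariate 4 of 8 had an unadjusted p under 0.05, against 4.05% of all genes, and with body weight as the only covariate 0 of 8, against 1.42%. With a replicate block and body weight, and cage left out, it was 4 of 8, against 9.03% of all genes, and with the length correction added 4 of 8, against 7.7%. With the full set of covariates it was 1 of 8 without wildtype replicate 5, against 1.6%, or without heterozygous replicate 7, against 2%, and 0 passed after adjustment in any of these fits. Body weight was 43.55 ± 3.79 g (SD, n = 10) in the heterozygous and 47.4 ± 4.69 g (SD, n = 6) in the wildtype mice.

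With heterozygous replicates 5, 6 and 7 left out, the estimates of the fast chains fell below 0. These libraries, all heterozygous, were picked for their high heavy-chain counts, so a fall was built in and is no test of the direction. The log2 fold change was then -0.27 ± 0.29 (SE) for Myh4, -0.21 ± 0.33 for Myh1 and -0.36 ± 0.29 for Myh2. Of 7 chains still tested, 1 was above 0, namely Myh8 at 0.44, Myh7 no longer passed the filter, and 0 of 7 had an unadjusted p under 0.05 against 1.74% of all genes. Leaving out heterozygous replicate 6 alone gave -0.16 for Myh4, -0.053 for Myh1 and -0.19 for Myh2, and leaving out wildtype replicate 4 alone gave -0.19, -0.093 and -0.086. No direction between labels is therefore drawn for the fast chains.

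**Figure D2:**
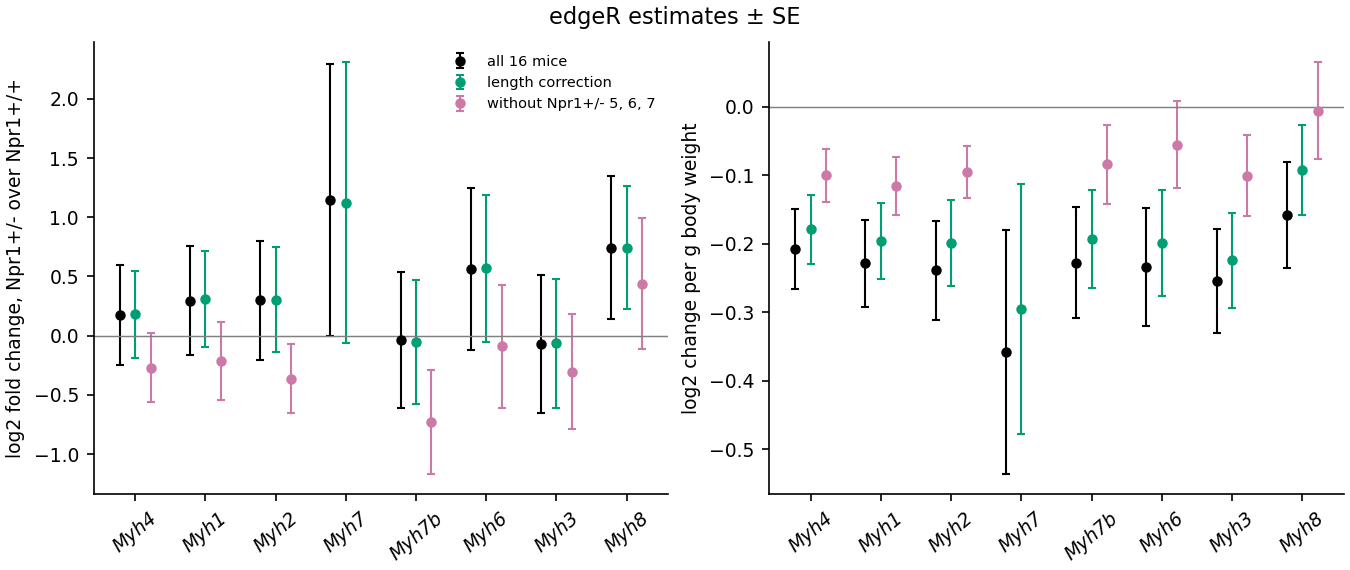
edgeR estimates with their SE for the 8 chains, as log2 fold change of heterozygous over wildtype on the left and as log2 change per g of body weight on the right, in all 16 mice (black), with a correction for gene length (green) and without heterozygous replicates 5, 6 and 7 (pink). The label estimates of Myh4, Myh1 and Myh2 lie above 0 in all mice and below 0 without the 3 libraries, and the body weight estimates lie below 0 in each fit.

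The 3 adult fast chains rose and fell together across mice. Myh4 and Myh1 had a Pearson r of 0.98 and a Spearman rho of 0.93 over the 16 mice in log2 CPM, each with a permutation p of 1e-05, the smallest that 100000 permutations can give, and an adjusted p of 5e-05 over 15 relations. For Myh4 and Myh2 r was 0.96 and rho 0.95, and for Myh1 and Myh2 r was 0.96 and rho 0.95, with the same permutation p values. Within cages r was 0.99, 0.96 and 0.97 for these 3 pairs, and without the 2 mice farthest from the median it was 0.96, 0.91 and 0.93. Without heterozygous replicates 5, 6 and 7 it was 0.94, 0.87 and 0.88. The relation of Myh4 with the slow chain Myh7 was looser, with r = 0.74 (permutation p = 0.00141, adjusted 0.00264) and rho = 0.58 (permutation p = 0.0204, adjusted 0.0341). It rested on the extreme mice, since r fell to 0.38 without the 2 farthest mice (permutation p = 0.175) and to 0.16 without the 3 libraries. Myh2 and Myh7 had r = 0.84 (permutation p = 8e-05, adjusted 0.00024) and rho = 0.74 (permutation p = 0.00118, adjusted 0.00295), and r = 0.60 without the 2 farthest mice and 0.44 without the 3 libraries. The 2 developmental chains, Myh3 and Myh8, had r = 0.78 (permutation p = 0.00051, adjusted 0.00127) and rho = 0.61 (permutation p = 0.0127, adjusted 0.0238). Without the 2 farthest mice r was 0.47 (permutation p = 0.0898) and without the 3 libraries 0.29, so the pooled r was lower without the extreme mice. Within cages r was 0.79 (permutation p = 0.00458), and in the wildtype mice, none of them among the 3 libraries, it was 0.88. Over all 28 pairs of members r ranged from 0.64 to 0.98, with a median of 0.85. Over the 13 mice without the 3 libraries r ranged from -0.16 to 0.94, with a median of 0.49.

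The members share sequence, and reads of one chain can be assigned to another or lost where they match both. Of the 52-base windows of the longest coding transcript, 18.04% in Myh4, 31.1% in Myh1 and 27.8% in Myh2 occurred exactly in another gene. The shares were 27.4% in Myh7, 21.8% in Myh6, 20.6% in Myh8 and 4.42% in Myh3, and no window of Myh7b was shared. Transcripts of Myh4 and Myh1 were 89.55% identical, those of Myh1 and Myh2 90.22% and those of Myh7 and Myh6 90.67%. Within 2 mismatches of another member lay 40.5% of the windows in Myh4, 54.4% in Myh1, 50.7% in Myh2 and 49.6% in Myh7. The share was 50.4% in Myh6, 42.4% in Myh8 and 16.7% in Myh3, and 0.753% (46 windows) in Myh7b. The levels of Myh2, Myh3, Myh6, Myh7 and Myh8 are thus uncertain beside the much larger Myh4 and Myh1. The part of shared reads in these values and in the correlations between members was not tested. Myh7b was at 2.84, 6.83 and 7.55 CPM in heterozygous replicates 5, 6 and 7 against 0.252 to 1.91 CPM in the other 13 mice. On the opposite strand, Myhas overlaps Myh1 and 9430073C21Rik overlaps Myh2, and whether the counting used strand is not given in the sources used here. Myhas was at 29.9 to 61.5 CPM and 9430073C21Rik at 2.26 to 10.2 CPM, well under the genes they overlap. The RNA 2310065F04Rik, which lies between Myh3 and Myh2 and overlaps no member, was at 178.6, 228.0 and 224.2 CPM in heterozygous replicates 5, 6 and 7, within or at the low end of its range of 178.6 to 409.5 CPM.

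The length of a gene moved with the same libraries. In each library the log2 deviation of a gene from its mean was set against the log2 of its length, and the slope was 0.18, 0.24 and 0.32 in heterozygous replicates 5, 6 and 7, and between -0.19 and 0.062 in the other 13. The log2 summed heavy-chain CPM followed this slope with r = 0.87 (permutation p = 4e-05, adjusted 0.00015) and rho = 0.74 (permutation p = 0.00163, adjusted 0.00349). Within cages r was 0.86, without the 2 farthest mice 0.69 and without the 3 libraries 0.51. The 2398 genes over 8000 bases had a median log2 deviation of 0.61 in heterozygous replicate 7, and the 838 genes of up to 1000 bases one of -0.59. The titin gene Ttn, the longest of the muscle genes examined at 117334 bases, was at 2961, 10396 and 15887 CPM in heterozygous replicates 5, 6 and 7, against a wildtype range of 1085 to 3788. The part of this length relation in the heavy-chain levels was not tested. In a fit with a length correction for each library, the label estimates were nearly unmoved, with 0.18 for Myh4, 0.31 for Myh1 and 0.31 for Myh2, and 0 of 8 had an unadjusted p under 0.05 against 1.28% of all genes.

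**Figure D3:**
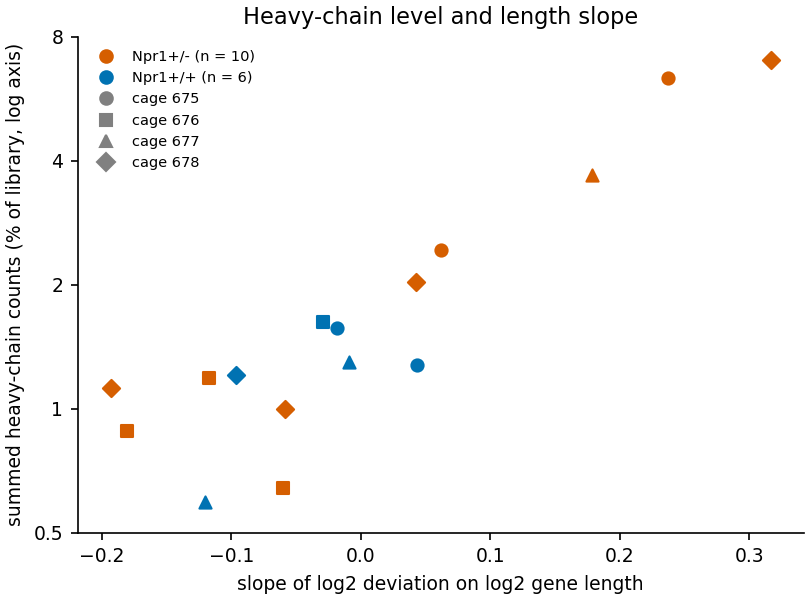
Summed counts of the 8 heavy chains as a percent of the library (log axis) against the slope of the log2 deviation on log2 gene length in the same library, 1 point a mouse, coloured by label and shaped by cage. Heterozygous replicates 5, 6 and 7 combine slopes of 0.18 to 0.32 with 3.69% to 7.02%, and the other 13 mice lie below them on both axes.

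Likeness to other genes showed the same feature. For each member the 3 tested genes with the highest Pearson r of log2 CPM over the 16 libraries were taken, 23 distinct genes in all. Their median length was 10578 bases against 4197 for all genes tested, and the shortest, Gab1, had 5082. Myh4 was most like Chd4, a chromatin remodeller (r = 0.99), Myo18a, an unconventional myosin (r = 0.99), and Acacb, the muscle acetyl-CoA carboxylase (r = 0.99). Myh1 was most like Acacb, Tmem131 and Celsr2 (each r = 0.99), and Myh2 like Rreb1 (0.99), Numa1 (0.98) and Tet3 (0.98). Myh7 had a lower best likeness, with Igfn1, Cspg4 and Pxdn at r = 0.90, 0.89 and 0.88. Myh7b was most like Gab1 at 0.99, Myh6 like Nfatc2 at 0.96, Myh3 like Rnf111 at 0.91 and Myh8 like Pole at 0.95.

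The shares, which compare the chains with each other inside a library, were next compared between labels. Myh4 made up 84.9% ± 2.53 (SD, n = 10) in heterozygous and 86.4% ± 1.27 (SD, n = 6) in wildtype mice, a difference of -1.56 percentage points (two-sided exact permutation test over 8008 splits, p = 0.184). Myh1 made up 13.9% ± 2.37 and 12.4% ± 1.37, a difference of 1.48 points (exact permutation p = 0.186). Myh2 made up 1.21% ± 0.344 and 1.13% ± 0.131, a difference of 0.0739 points (exact permutation p = 0.631). The label ranges of all 3 overlapped, and 0 of the 8 shares had a p under 0.05 in this test. The deviations from the cage means gave a difference of -1.66 points for Myh4 and of 1.53 points for Myh1, each with an exact permutation p of 0.0361 over the 360 splits within cages, with no adjustment for the 8 shares tested. Without heterozygous replicates 5, 6 and 7 the differences were -0.70 points for Myh4 (exact permutation p = 0.527) and 0.76 points for Myh1 (exact permutation p = 0.482). Those last p values came from splits of all the remaining mice and not from splits within cages. The test of shares therefore depended on whether cage was held fixed. None of these tests held body weight, which had the lower mean in the heterozygous mice, so label and weight were not separated in the shares.

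The balance of IIb and IIx mRNA varied over the cages, whose mice also varied in weight. In cage 676 Myh1 made up 11.3% ± 0.532 (SD, n = 4) of the heavy-chain counts, from 10.7% to 11.9%. In cage 678 it made up 15.01% ± 1.55 (SD, n = 5), from 12.9% to 16.4%, so that every mouse of cage 678 lay above every mouse of cage 676. Cage 675 had 12.3% ± 1.32 (SD, n = 4) and cage 677 14.6% ± 2.43 (SD, n = 3), and both overlapped with cage 678. A permutation test of the F statistic over the 4 cages, added after the shares were seen, gave p = 0.013 for Myh1, 0.022 for Myh4 and 0.462 for Myh2. This test held neither label nor body weight, and its p values were not adjusted. The mice weighed 45.3 to 48.1 g in cage 676 and 36.5 to 45 g in cage 678, so cage and weight were not separated. In the 10 heterozygous mice alone the permutation p was 0.0127 for Myh1 and 0.0165 for Myh4, and without heterozygous replicates 5, 6 and 7 it was 0.0254 and 0.0292.

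**Figure D4:**
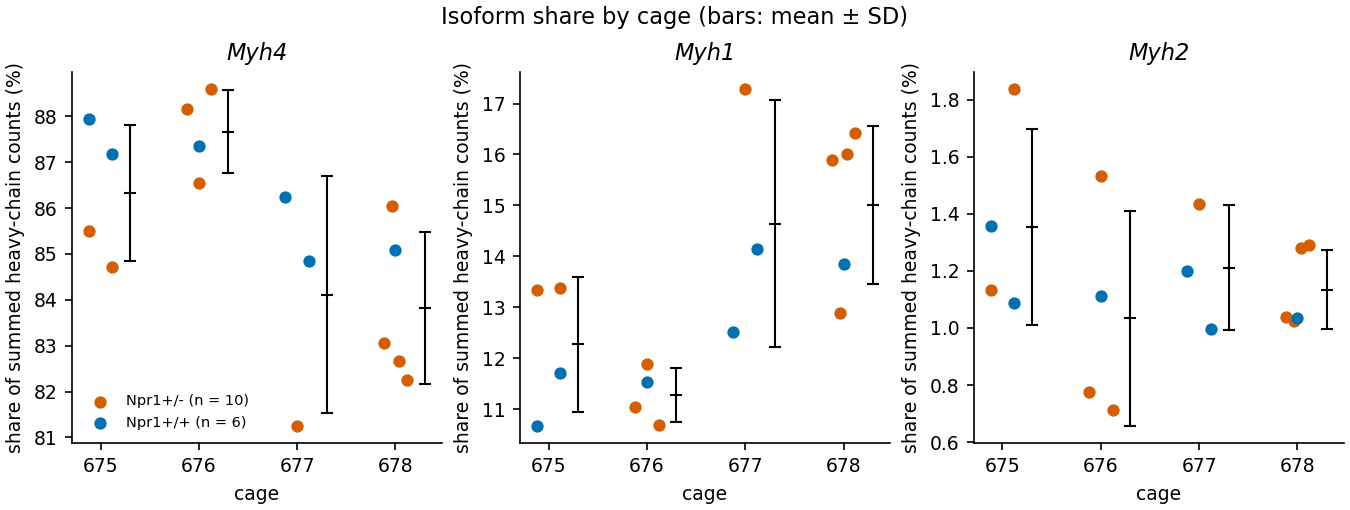
Share of the summed heavy-chain counts (percent, axes not from 0) held by Myh4, Myh1 and Myh2 in each mouse by cage, heterozygous in orange and wildtype in blue, with the mean and SD of each cage as black bars. Myh1 lies at 10.7% to 11.9% in cage 676 and at 12.9% to 16.4% in cage 678, and Myh4 runs the other way.

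As levels, 7 of the 8 chains had an unadjusted p under 0.05 between cages with label and body weight as covariates, against 7.35% of all genes, and 0 passed after adjustment (edgeR, adjusted p from 0.656 to 0.672), where 0.0279% of all genes did. The smallest unadjusted p values were 0.00758 for Myh7 and 0.00763 for Myh2, and Myh8 at 0.167 was the exception. This count depended on the fit. It was 1 of 8 with cage as the only covariate beside the label, against 4.27% of all genes, 2 of 8 by limma-voom, against 5.36%, and 3 of 8 with no filter on low counts, against 5.61%. Without heterozygous replicate 6 alone it was 0 of 8, against 3.19% of all genes. Without heterozygous replicate 1, 4 or 8 it was 4 of 8, against 4.55%, 5.04% and 8.33%, and without replicate 9 or 10 it was 3 of 8, against 6.6% and 4.48%. Without heterozygous replicates 5, 6 and 7 there were 2 of 7, against 4.96% of all genes, and with the length correction 7 of 8, against 7.19%. Without heterozygous replicate 3 as the only mouse left out, 7 of 8 passed after adjustment (edgeR, adjusted p from 0.0146 to 0.0223, and 0.0504 for Myh8), where 6.08% of all genes did.

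All 8 chains had lower estimates in heavier mice. With label and cage as covariates, the log2 change per g of body weight was -0.21 ± 0.058 (SE) for Myh4, -0.23 ± 0.063 for Myh1 and -0.24 ± 0.072 for Myh2, over weights of 36.5 to 54 g. Among the others it ran from -0.16 for Myh8 to -0.36 for Myh7. Of the 8, 6 had an unadjusted p under 0.05 and a lower level with weight, against 12.3% of all genes (17.1% in either direction), and 0 passed after adjustment (edgeR, adjusted p from 0.246 to 0.312), where 0% of all genes did. By limma-voom 4 had an unadjusted p under 0.05, against 17% of all genes, and without heterozygous replicate 7 alone 2 of 8 had one by edgeR, against 6.89%. The median over the 8 was -0.23 beside -0.0033 over all genes tested, and 52.7% of all genes were lower with weight. With each mouse left out all 8 estimates stayed below 0, from -0.28 to -0.14 for Myh4 and -0.54 to -0.23 for Myh7. They ran from -0.26 to -0.015 for Myh8, -0.36 to -0.11 for Myh3, -0.34 to -0.11 for Myh6 and -0.33 to -0.12 for Myh7b.

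One mouse decided this call. Without heterozygous replicate 3, a mouse of 40.1 g, all 8 passed after adjustment (edgeR, adjusted p from 0.00429 to 0.0139), with a median of -0.33 per g, and 22.1% of all genes were then called, 13.7% lower with weight. Without heterozygous replicates 5, 6 and 7, the median of the 7 chains tested was -0.095 per g, 3 had an unadjusted p under 0.05 against 5.05% of all genes, and 0 passed after adjustment (edgeR, adjusted p from 0.842 to 0.986). With the length correction the estimates were -0.18 for Myh4, -0.20 for Myh1 and -0.20 for Myh2, and 6 of 8 had an unadjusted p under 0.05 against 17.5% of all genes. With body weight as the only covariate beside the label, 1 of 8 had an unadjusted p under 0.05, against 8.21% of all genes. In the 16 mice without covariates, the log2 summed CPM had r = -0.58 with body weight (permutation p = 0.0194, adjusted 0.029) and rho = -0.57 (permutation p = 0.0233, adjusted 0.0349). Within cages r was -0.72 (permutation p = 0.0128), and without the 2 mice farthest in weight it was -0.43 (permutation p = 0.126), so that the p of the pooled relation, though not the sign of r, rested on those mice. It was -0.68 in the 10 heterozygous mice (permutation p = 0.0297), -0.11 in the 6 wildtype mice and -0.44 without heterozygous replicates 5, 6 and 7. The length slope had r = -0.41 with body weight (permutation p = 0.112, adjusted 0.12) and rho = -0.35 (permutation p = 0.185, adjusted 0.198). That r was -0.55 within cages (permutation p = 0.049), -0.65 in the heterozygous mice (permutation p = 0.0411), 0.59 in the wildtype mice and 0.041 without the 3 libraries, and the part of the slope in the relation of the levels with weight was not tested.

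The share of Myh1 also went down with body weight. It had r = -0.74 (permutation p = 0.00123, adjusted 0.00264) and rho = -0.82 (permutation p = 0.00026, adjusted 0.000975) over the 16 mice. Without the 2 mice farthest in weight r was -0.74 (permutation p = 0.00258), and without heterozygous replicates 5, 6 and 7 it was -0.61. It was -0.72 in the 10 heterozygous mice (permutation p = 0.0215) and -0.78 in the 6 wildtype mice. Within cages r was -0.60, with a permutation p of 0.0499. Cage 676, with mice of 45.3 to 48.1 g, had the lowest mean share of Myh1 of the 4 cages, and cage 678, with mice of 36.5 to 45 g, the highest. The share of Myh4 rose with weight, with r = 0.71 (permutation p = 0.00205, adjusted 0.00342) and rho = 0.77 (permutation p = 0.00084, adjusted 0.00252), and within cages r was 0.57 (permutation p = 0.0617). The share of Myh2 showed no such relation that could be detected, with r = -0.059 (permutation p = 0.829, adjusted 0.829) and rho = -0.069 (permutation p = 0.797, adjusted 0.797). The length slope had r = 0.44 with the share of Myh1 (permutation p = 0.0879, adjusted 0.101) with rho = 0.36 (permutation p = 0.172, adjusted 0.198), and r was 0.034 without the 3 libraries. With the share of Myh4 it had r = -0.49 (permutation p = 0.053, adjusted 0.0663) and rho = -0.44 (permutation p = 0.0903, adjusted 0.123), and r was -0.053 without the 3 libraries. With the share of Myh2 it had r = 0.55 (permutation p = 0.0288, adjusted 0.0392) and rho = 0.38 (permutation p = 0.148, adjusted 0.185). That r was 0.45 within cages (permutation p = 0.0364), 0.37 without the 2 farthest mice (permutation p = 0.191) and 0.18 without the 3 libraries, so that its p rested on those mice.

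**Figure D5:**
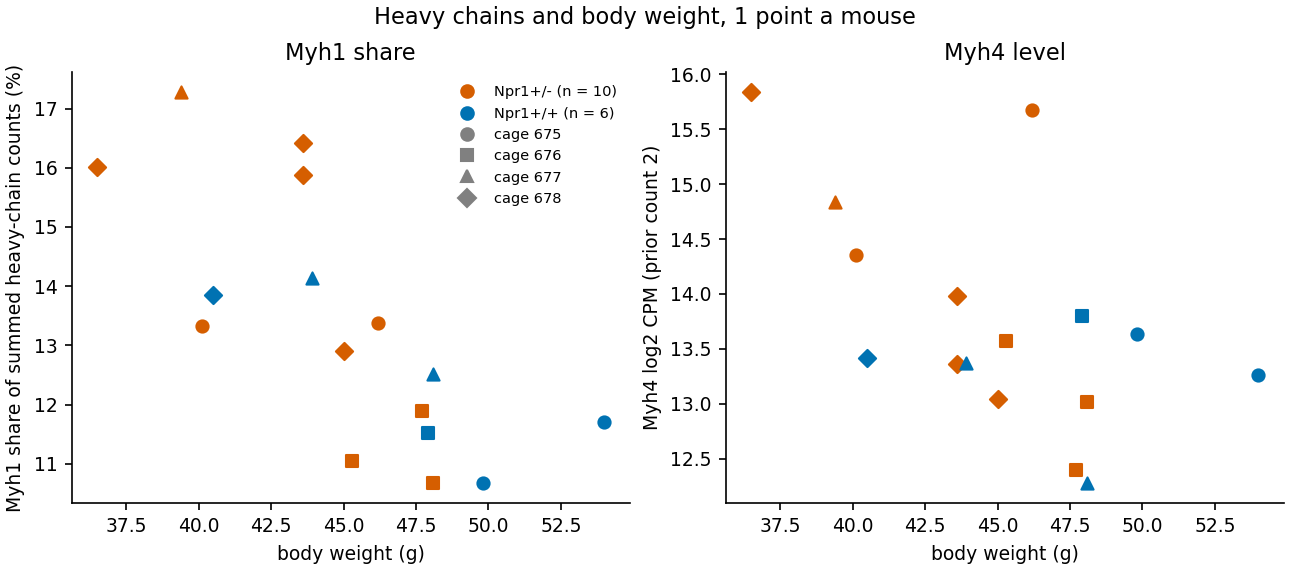
Share of Myh1 in the summed heavy-chain counts (percent, left, axis not from 0) and level of Myh4 (log2 CPM, right) against body weight in g, 1 point a mouse, coloured by label and shaped by cage. The share of Myh1 runs from 17.3% in a mouse of 39.4 g to 10.7% in mice of 48.1 and 49.8 g, and the highest Myh4 levels include a mouse of 46.2 g that stands apart from the others of its weight.

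The partners of the heavy chains in fast fibres were compared between labels in the same fit. All 12 genes of the fast thin filament, light chains and calcium handling were below 0 between labels, with a median of -0.11, and 0 of 12 passed the test or had an unadjusted p under 0.05, where 48.4% of all genes were above 0. This direction depended on the covariates. Without cage and body weight 5 of the 12 were above 0, with a median of -0.031, where 52.2% of all genes were above 0, and the same number had the higher mean in heterozygous mice, among them Atp2a1, the fast calcium pump, at 21907 ± 8179 CPM against 16626 ± 5966 CPM. Pvalb, the calcium buffer parvalbumin, was at 20428 ± 8207 CPM in heterozygous and 21374 ± 3541 CPM in wildtype mice. Mylpf, the fast regulatory light chain, was at 13741 ± 4533 and 14161 ± 2117 CPM, and Tnnc2, fast troponin C, at 372.9 ± 75.6 and 418.2 ± 87.8 CPM. Across mice, 6 of the 12 had an r above 0 with the log2 summed heavy-chain CPM and 6 below 0, from 0.82 for Atp2a1 to -0.85 for Myoz1, a Z-disc protein. For the fast light chains r was -0.79 for Mylpf and -0.81 for Myl1. Of the 14323 tested genes that are no member, 50.2% had an r above 0. Without the 3 libraries 8 of the 12 were above 0, where 49.3% of all genes that are no member were, with 0.77 for Atp2a1, -0.46 for Myoz1, -0.33 for Mylpf and -0.40 for Myl1.

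Of 11 slow fibre partners, 3 were above and 8 below 0 between labels, with a median of -0.11, and 0 passed the test, while 1 had an unadjusted p under 0.05, against 1.05% of all genes. That gene was Casq2, the slow and cardiac calsequestrin, at 60.6 ± 23.1 CPM in heterozygous and 122.4 ± 34.4 CPM in wildtype mice (log2 fold change -0.95 ± 0.25 SE, edgeR adjusted p = 1). Mybpc1, the slow myosin binding protein C, was at 2001 ± 799 and 1831 ± 349 CPM and Myl3, the slow essential light chain, at 118.6 ± 41.5 and 109.8 ± 19.3 CPM. Genes for myosin folding and thick filament assembly had 6 of 13 above 0, with a median of -0.0030, and 0 passed. Without cage and body weight 5 of the 11 slow partners were above 0, with a median of -0.098. In that fit 10 of the 13 folding and assembly genes were above 0, with a median of 0.23, where 52.2% of all genes were. Among these 13, Mylk2, the skeletal light chain kinase, was at 1501 ± 180 and 1386 ± 209 CPM, Mylk4 at 1863 ± 776 and 1721 ± 450 CPM, and Mybph at 28.4 ± 17.8 and 31.4 ± 13.6 CPM. Across mice 11 of these 13 had an r above 0 with the log2 summed heavy-chain CPM, up to 0.97 for Myom2, an M-band protein. The lowest were Smyd1, a methyltransferase that binds myosin, at -0.83 and the myosin chaperone Hsp90aa1 at -0.57. Without the 3 libraries 10 of 13 were above 0, against 49.3% of all genes, and the 3 genes stood at 0.92, -0.74 and -0.36.

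Regulators of fibre type had 13 of 17 above 0 between labels, with a median of 0.051, and 0 passed the test. Without cage and body weight 15 of 17 were above 0, with a median of 0.24, where 52.2% of all genes were. Tbx15, a factor of glycolytic fibres, was at 214.5 ± 56.0 and 209.1 ± 38.8 CPM, and Mef2c, a myogenic activator, at 803.2 ± 118.3 and 776.3 ± 98.4 CPM. Along body weight 10 of the 17 had an unadjusted p under 0.05, each lower in heavier mice, against 12.3% of all genes, and 0 passed after adjustment. The same count was 3 of 12 for the fast partners, 2 of 11 for the slow partners and 7 of 13 for the folding and assembly genes, each lower in heavier mice, and 3 of 9 for the denervation and regeneration genes, of which 2 were lower, and 0 passed after adjustment in any of these lists. With the length correction the count in either direction was 9 of 17 for the regulators, 5 of 12 for the fast partners, 2 of 11 for the slow partners, 9 of 13 for the folding and assembly genes and 4 of 9 for the denervation and regeneration genes, against 17.5% of all genes. Between cages, an unadjusted p under 0.05 was found for 3 of 17 regulators, 0 of 12 fast and 1 of 11 slow partners, 2 of 13 folding and assembly genes and 1 of 9 denervation and regeneration genes, against 7.35% of all genes, and 0 passed after adjustment (edgeR). Of the 17 regulators 16 had an r above 0 with the log2 summed heavy-chain CPM, with a median of 0.65, and 14 of 17 without the 3 libraries, against 50.2% and 49.3% of all genes. The count was 5 of 11 for the slow partners and 5 of 9 for the denervation and regeneration genes, each the same without the 3 libraries. The median length of the genes above and below 0 in this r was 2426 and 1694.5 bases among the fast partners, 4527 and 2390 among the slow partners, 4493 and 4238.5 among the folding and assembly genes, 5860 and 1629.5 among the denervation and regeneration genes, and 7661 among the regulators, with 3085 for the 1 regulator below 0. Of 9 denervation and regeneration genes tested, of 12, 6 were above 0, or 7 without cage and body weight, and 0 passed. Myf6, a myogenic factor of adult fibres, was at 85.0 ± 14.3 and 90.8 ± 13.7 CPM, and Gadd45a, which rises in denervated muscle, at 20.7 ± 3.11 and 21.4 ± 4.81 CPM. The 5 other myosin heavy chains, of nonmuscle, smooth muscle and extraocular types, were all above 0, with a median of 0.36, and 0 passed. Without cage and body weight all 5 were again above 0, with a median of 1.19. Myh9 was at 41.4 ± 35.4 and 19.4 ± 3.15 CPM, Myh10 at 8.39 ± 7.94 and 3.55 ± 0.350 CPM and Myh11, the smooth muscle chain, at 36.95 ± 33.95 and 22.2 ± 7.87 CPM. Their r with the log2 summed heavy-chain CPM was 0.78 to 0.98 over the 16 mice and 0.17 to 0.97 without the 3 libraries. An unadjusted p under 0.05 was found for 4 of the 5 between cages, against 7.35% of all genes, and for 4 of the 5 along body weight, against 17.1%, or 3 of the 5 with the length correction, against 17.5%. None of the 5 passed after adjustment in either comparison (edgeR).

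Markers of skeletal and cardiac muscle, and of other cell types that a muscle sample can hold, were examined beside the chains. The 7 cardiac markers summed to 15.2 to 37.2 CPM in heterozygous and 24.5 to 33.0 CPM in wildtype mice, with Myl7 at 0 in all 16 libraries, and their sum was at 21.3, 15.2 and 16.6 CPM in heterozygous replicates 5, 6 and 7, where Myh6 and Myh7 were highest or among the highest. The 4 smooth muscle markers summed to 219.8, 223.9 and 223.3 CPM in those 3 mice, at the upper end of the 100.05 to 223.9 CPM of the heterozygous mice and above the 119.5 to 206.9 CPM of the wildtype mice. That list includes Myh11. The 5 skeletal muscle markers summed to 77648, 66798 and 66503 CPM in the 3 mice, within or at the low end of the 66503 to 119433 CPM of the heterozygous mice, and the wildtype mice ran from 65207 to 108064 CPM, so that the lowest sum was in a wildtype mouse. Summed adipocyte markers were at 30.7 to 335.2 and 76.9 to 291.3 CPM, tendon markers at 198.5 to 574.4 and 242.6 to 417.1 CPM, erythrocyte markers at 80.9 to 480.2 and 182.1 to 300.4 CPM, and macrophage markers at 8.52 to 18.9 and 12.0 to 19.7 CPM, in heterozygous and wildtype mice. In heterozygous replicates 5, 6 and 7 these sums were 74.2, 143.7 and 52.2 CPM for adipocytes, 241.5, 574.4 and 340.6 CPM for tendon, 143.4, 262.8 and 80.9 CPM for erythrocytes, and 10.3, 16.6 and 8.82 CPM for macrophages, so replicate 6 had the highest tendon sum of its label. Their part in the heavy-chain levels was not tested. In whole-tissue RNA, fewer fibres of a type and less mRNA per fibre cannot be told apart.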

How the data were processed

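The deposited table holds raw counts per gene. Per the labels and the methods, the authors aligned 52-base paired-end reads to GRCm38 with STAR 2.7.2b and counted fragments with both ends aligned over GENCODE M24 genes with featureCounts (1.6.4 in the submitters' processing notes). The labels name a Tecan Universal Plus kit and the methods a TruSeq Stranded protocol. Symbols came from a GENCODE M21 table, which paired 55144 of 55471 identifiers, and coordinates and gene lengths from the deposited table. Promoters and microRNAs are RefSeq sequences (GRCm38.p6).

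Genes were filtered with filterByExpr, scaled by TMM and tested over all 14331 genes with glmQLFit (robust) and glmQLFTest of edgeR 4.0.16 in R 4.3.3, with label, cage and body weight as terms, Benjamini-Hochberg adjustment and a threshold of 0.05. DESeq2 1.42.0 and limma 3.58.1 were alternatives. SE is the estimate over the square root of F. Log2 CPM used a prior count of 2. Shares were compared by exact permutation, and relations by 100000 permutations, two-sided, with scipy 1.17.1 and numpy 2.4.6. The length correction fitted a lowess of span 0.3 per library. The steps were tested on simulated data.

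The members, the gene lists and the tests were chosen with earlier results of these data known, and tests of shares over cages and weight, the length correction and the omission of 3 libraries after the values were seen. Named genes were the 8 members, the 3 genes most like each, and from each list the 2 highest per kilobase and the 1 with the smallest p between labels. Atp2a1, Myoz1, Myl1, Myom2, Smyd1, Hsp90aa1, Ckm, Acta1, Tnnt3, Myog, Myl7, Ttn and the RNAs overlapping or between members were named after their values were seen. Each library is 1 mouse, and 6 same-numbered pairs across labels are different animals. P-values and intervals cover the spread between these mice, and floors of 3 counts cover counting error only.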

Additional observations from a re-analysis of the deposited data

Results flagged for a closer look

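Each member's log2 CPM and share was examined within each label for a mouse whose gap to the nearest other mouse was large beside the range of its group. Of 32 such groups 5 had one, where chance gives about 1 in 20 groups, or 1.6 of 32. Wildtype replicate 1 was far below the other wildtype mice for Myh4, at a log2 CPM of 12.27, and for Myh1, at 9.49. It was also the mouse with the smallest summed heavy-chain share of its library, 0.594%. Wildtype replicate 4 was far above the other wildtype mice for Myh7, at a log2 CPM of 1.41 from 37 counts and at a share of 0.0200% of the heavy-chain counts. Heterozygous replicate 6 was far above the other heterozygous mice in the share of Myh7, at 0.0461%.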

How the results depend on the processing

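No alternative tried, including each mouse left out in turn, called a heavy chain between labels. The count of all genes called between labels, 0 by edgeR, was 6 by DESeq2, 8 with no filter on low counts, 1 without heterozygous replicates 5, 6 and 7 and 0 to 3 with each mouse left out. Replicate numbers do not pair the mice, since same-numbered mice had a mean correlation of 0.0779 over 6 pairs, of which 1 exceeded 0.1, and others -0.00816. The replicate block in place of cage called 2 genes, with 0.71 for Myh7b and 0.92 for Myh3, and with the length correction 4 genes, with 0.59 and 0.79. In the block fit the smallest unadjusted p of a heavy chain was 0.00174 for Myh8 (edgeR, adjusted p = 0.52). Myh7b and Myh3 also turned above 0 with the label alone (1.03 and 1.08), with cage as the only covariate (0.87 and 1.10), with body weight as the only covariate (0.41 and 0.37) and by limma-voom (0.13 and 0.23). Without heterozygous replicates 5, 6 and 7 the log2 fold change reversed to -0.27 for Myh4, -0.21 for Myh1, -0.36 for Myh2 and -0.091 for Myh6. As these mice were picked for their high heavy-chain counts, a move down was built in. In that setting the share differences became -0.0595 points for Myh2, -0.00187 for Myh7 and -0.000463 for Myh6, and 1 share, that of Myh7b, had a p under 0.05. With each mouse left out, log2 fold changes ran from -0.19 to 0.76 for Myh4, -0.093 to 1.01 for Myh1, -0.19 to 1.12 for Myh2 and -0.34 to 2.84 for Myh7. They ran from -0.68 to 0.56 for Myh7b, -0.67 to 0.38 for Myh3, 0.074 to 1.14 for Myh6 and 0.12 to 1.33 for Myh8. The share difference ran from -1.97 to -1.15 points for Myh4, 1.10 to 1.84 for Myh1, 0.0038 to 0.129 for Myh2 and -0.000924 to 0.00621 for Myh7. Splits within cages gave 2 shares with a p under 0.05 against 0, and leaving out each mouse 0 to 1. Genes called between cages, 4 by edgeR, were 0 with library size only, 1 by limma-voom, 23 with no filter, 9 with the length correction, 2 without the 3 libraries and 0 to 869 with each mouse left out, and heavy chains called were 0 to 7. Along body weight 0 to 3158 genes and 0 to 8 heavy chains were called with each mouse left out, the highest of these 4 counts each without heterozygous replicate 3. The cause was not tested. The low counts of Myh7, Myh7b, Myh6, Myh3 and Myh8 limit what could be detected for them.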
